A study of Mus musculus with 8 samples.

Results

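Expression and DNA hydroxymethylation of 7 genes of the blood vessel wall and its surroundings were followed in sorted cells of the adult mouse brain. The genes were Cldn5, Flt1, Pecam1, Thbd, Efemp1, Dcn and Ly6c1. They were picked as endothelial and perivascular fibroblast genes with the RNA difference between the sorted populations and the hydroxymethylation of the Efemp1 gene body already known. RNA values of the members and the Efemp1 hydroxymethylation values are therefore a description, printed without p-values. Where a fit over all features passed its threshold for one of them, that restates the choice of members and supports nothing. The RNA tables listed 4 of the 7 (Cldn5, Thbd, Efemp1 and Dcn) among 11315 genes, and Flt1, Pecam1 and Ly6c1, which encodes a surface protein of brain endothelium, were not in them. Hydroxymethylation records were present for 6 of the 7, all but Ly6c1, with 284 of 1497075 records.

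RNA-sequencing, together with RRHP (reduced representation hydroxymethylation profiling), was performed on cells sorted at postnatal day 60 from C57BL/6 mouse brain. Adult oligodendrocyte progenitors (aOPC) were EGFP+ cells of Pdgfra-H2BEGFP mice, in which the reporter follows Pdgfra, and adult oligodendrocytes (aOL) were EGFP+ cells of Plp-EGFP mice, in which it marks oligodendrocytes. Each population had 2 RNA and 2 RRHP libraries, numbered 2 and 3, with RNA and DNA drawn from one pellet of cells and no treatment named in the labels. The tissue label of the aOL RRHP libraries names the Pdgfra reporter, so these libraries were grouped by their titles, and the aOL RNA titles call the cells pre-myelinating whereas their protocol calls them myelinating.

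Brain endothelial cells line the vessels and are sealed to each other by tight junctions, which form the blood-brain barrier. Mural cells wrap these vessels, and perivascular fibroblasts, which lie around the larger ones, secrete collagens, fibulins and proteoglycans. Pdgfra, the gene behind the aOPC reporter, is known to be active in perivascular fibroblasts as well as in oligodendrocyte progenitors. The dissociation used by the study included steps to take away meninges and vessels before the sort.

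Both populations carried oligodendrocyte transcripts. Of 12 oligodendrocyte markers tested, 3 were higher and 4 lower in aOL without overlap, and none was called. Of 11 OPC markers 2 were higher and 4 lower in aOL without overlap, 5 overlapped, and none was called. Of all tested genes 31.9% were higher and 29.9% lower without overlap, and the marker counts are not read as apart from that. Pdgfra itself, named here as the reporter gene and after its values were seen, was at 7.54 and 5.47 in the aOPC pair. In the aOL pair it was at 4.98 and 1.63, and 85 genes hold that last value. It passed the filter only through aOPC. Matn4, an OPC marker also named after its values were seen, went the other way, at 8.63 and 8.14 against 8.84 and 9.54. Sox10, which marks the whole lineage, was at 15.39 and 15.23 against 15.62 and 15.69. Sox10 was likewise chosen after its values were seen. The 2 aOPC RNA libraries were further apart than the aOL libraries, with a standard deviation of their difference over genes of 0.952 against 0.446 log2 units. RRHP libraries held between 7113237 and 27057859 counts.

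Of the endothelial members, Cldn5, which encodes the claudin that seals the barrier, was higher in aOL than in aOPC, where it stood near the bottom of the scale. Its log2 RNA level was 0.33 and 1.80 in the aOPC pair, against 5.92 and 7.13 in the aOL pair. The populations did not overlap, and the aOL libraries were higher by 5.46 ± 0.69 log2 units (SE, n = 2 against 2). Cldn5 entered the fit only through its aOL libraries, since the filter asked for an RNA level of at least 5 (log2) in at least 2 libraries. Its aOPC values are ones that many genes hold, 23 in replicate 2 and 96 in replicate 3, Cldn5 included.

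Thbd encodes thrombomodulin, the endothelial receptor that turns thrombin towards activating protein C, and it had the opposite pattern. Its log2 RNA level was 10.16 and 9.77 in aOPC against 5.60 and 5.42 in aOL, replicates 2 and 3 in each. Both aOPC libraries lay above both aOL libraries, with a difference of -4.45 ± 0.24 (SE). In bulk samples such as these, fewer cells of a type and less RNA per cell cannot be told apart.

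The matrix members were high in aOPC. Efemp1 encodes fibulin-3, a secreted glycoprotein of the elastic fibre family. Its log2 RNA level was 11.39 and 10.88 in aOPC compared with 5.81 and 5.71 in aOL, a difference of -5.37 ± 0.26 (SE), or 41.5-fold on this scale. Dcn encodes decorin, a small proteoglycan that binds collagen fibrils. It stood at 8.34 and 9.97 in aOPC, against 5.38 and 4.66 in aOL, a difference of -4.14 ± 0.64 (SE). The aOPC libraries of Dcn were 1.15 apart as an SD, against 0.50 for aOL, and still did not overlap with them.

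The fit across all 11133 genes tested called 8 genes lower in aOL (0.0719% of those tested) and 1 higher (0.00898%), at p under 0.01 with an adjusted p under 0.05. Efemp1 and Thbd are 2 of those 8, which the choice of members had fixed. Cldn5 and Dcn were not called. Libraries that did not overlap were common, with 29.9% of tested genes lower and 31.9% higher in aOL, so non-overlap was the commoner case among all tested genes too. Over all tested genes the median difference was 0.02 log2 units.

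**Figure D1:**
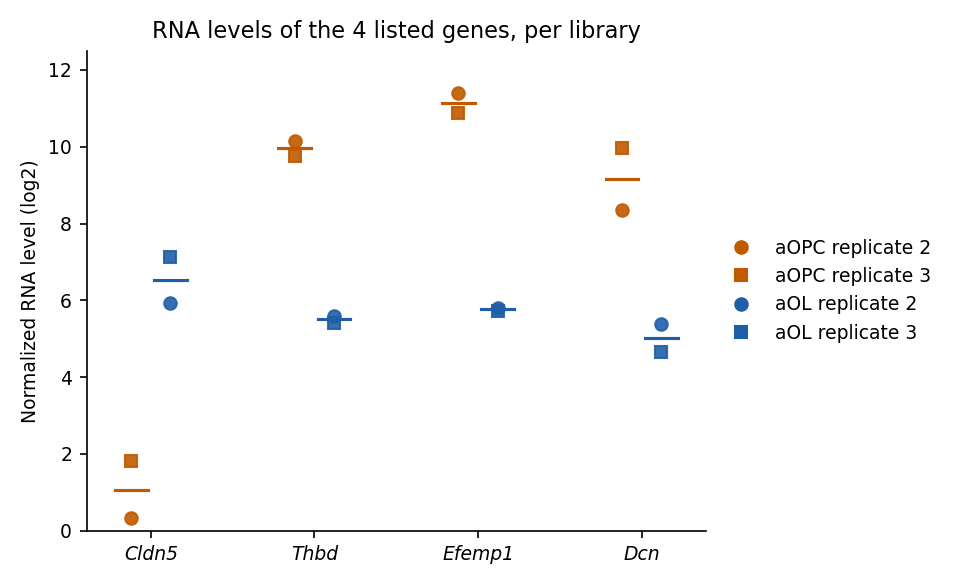
Normalized RNA level (log2, vertical axis) of the 4 listed genes in each library, with the mean of each population as a horizontal line. Cldn5 was higher in the aOL libraries (5.92 and 7.13), and Thbd, Efemp1 and Dcn were higher in the aOPC libraries, where Efemp1 reached 11.39.

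The genes most like Efemp1 over the 4 RNA libraries, by the distance between their centred log2 levels, were Slc16a11 (0.22 log2 units), 1810011O10Rik (0.60) and Sbsn (0.61). Slc16a11 encodes a monocarboxylate transporter family member and stood at 7.10 and 6.50 in aOPC against 1.57 and 1.63 in aOL. Sbsn, the gene of suprabasin, had 6.80 and 7.13 in aOPC and the same low aOL values. Slc16a11, 1810011O10Rik and Sbsn all passed the filter only through aOPC. Their 1.63 in aOL replicate 3 is a value that 85 genes hold, whereas Efemp1 stood at 5.71 there. Those most like Cldn5 were Tnn (0.70), Prss56 (1.0) and Mybpc1 (1.16). Tnn, which encodes the matrix protein tenascin-N, had 0.80 and 1.80 in aOPC compared with 6.83 and 7.89 in aOL. Tnn, Prss56 and Mybpc1 passed the filter only through aOL, and 96 genes hold their 1.80 in aOPC replicate 3. With 4 libraries, these distances mostly describe the difference between the populations.

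The perivascular fibroblast list held 21 genes, of which 15 were in the RNA tables and all 15 were tested. Among them 13 were lower in aOL without overlap, 2 overlapped and none was higher. Of all tested genes, 29.9% were lower and 31.9% higher without overlap. At an unadjusted p under 0.05, 12 of the 15 were lower, against 12% of all tested genes lower and 12.1% higher, and Efemp1 was the 1 gene called. With the members left out, 11 of 13 were lower without overlap, 10 were lower at that unadjusted p, and the median difference was -3.27 log2 units. All these counts include Serping1 and Igf2, named after their values were seen, which passed the filter only through aOPC. For such genes the filter itself favours a lower value in aOL. The list was set with earlier results of these data known, and its direction is therefore no independent evidence. Summed on the linear scale, its 15 genes came to 12000 and 10200 in the aOPC libraries and to 1800 and 1580 in the aOL libraries. These sums include the members Efemp1 and Dcn, and so partly restate their choice. Mgp and Efemp1 were the highest of the 15 genes in both aOPC libraries.

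Mgp, the gene of matrix Gla protein, an inhibitor of calcification, was the list's most different gene, with 11.42 and 10.93 in aOPC, against 5.60 and 4.73 in aOL. It was 6.01 ± 0.39 log2 units apart and was not called (limma adjusted p = 0.0611). The fibrillar collagen gene Col1a1 was at 9.65 and 9.34 in aOPC against 6.21 and 2.83 in aOL. Col3a1, another fibrillar collagen gene, was at 8.06 and 8.80 against 5.97 and 3.61. Bgn, which encodes biglycan, a close relative of decorin, went against the pattern in 1 library, with 7.36 and 7.21 in aOPC compared with 3.03 and 7.38 in aOL. Col1a1, Col3a1 and Bgn were chosen for mention after their values were seen.

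Of the 7 fibulin genes listed, 6 were tested, and of the 5 besides Efemp1 3 were lower in aOL without overlap and 1 higher, next to 29.9% and 31.9% of all tested genes. Fbln2, the fibulin that was higher, had 4.46 and 0.32 in aOPC, against 7.26 and 9.47 in aOL, and lay 5.97 ± 1.64 log2 units (SE) apart, having passed the filter only through its aOL libraries. Fbln5, among the lower ones and named after its values were seen, passed it only through aOPC (6.11 and 5.35 against 3.61 and 2.83). Small leucine-rich proteoglycans, the family of decorin, had 4 of 10 genes listed and tested, and of the 3 besides Dcn 1 was lower without overlap and none higher. With so few genes, these counts are not read as apart from those shares. Ogn, the gene of osteoglycin, stood at 8.60 and 8.78 in aOPC against 5.66 and 4.80 in aOL and was not called (limma adjusted p = 0.0919).

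The endothelial lists gave no common direction. Of 12 junction genes, 7 were tested, and of the 6 besides Cldn5 4 were higher in aOL without overlap and none lower, next to 31.9% higher among all tested genes. Tjp1, a scaffold protein of tight junctions, was second to Cldn5, with 12.94 and 12.37 in aOPC compared with 13.77 and 13.68 in aOL, and was not called (limma adjusted p = 0.154). Esam, Cdh5, Pecam1, Cgn and Marveld2 were not in the RNA tables. Cdh5, the endothelial cadherin, and Pecam1 are among the genes that define endothelial cells.

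Of 14 growth factor and angiogenic receptors, the group of Flt1, 4 were listed. Kdr, the second receptor for vascular endothelial growth factor, stood at 9.07 and 9.36 in aOPC, against 9.73 and 10.07 in aOL, and was named after its values were seen. Nrp1, a co-receptor, stood at 7.75 and 7.39 against 5.20 and 4.20, and Ptprb, an endothelial phosphatase, at 4.79 and 0.32 against 6.16 and 6.03, having passed the filter only through aOL. None of the 4 was called. Flt1, Tek, Tie1 and Eng, receptors that define endothelium, were among the 10 not listed. Of the 5 angiogenic ligands tested, Vegfa, the main endothelial growth factor, was at 10.81 and 10.66 in aOPC against 11.24 and 11.33 in aOL. Pgf, a ligand of Flt1, was at 6.51 and 7.09 against 4.90 and 5.52, and neither was called.

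The surface and coagulation list, which holds Thbd and Ly6c1, had 7 of 17 genes in the tables and 6 tested. Of the 5 besides Thbd, 2 were lower in aOL without overlap, next to 29.9% of all tested genes, and none was called. One was Icam1, a leukocyte adhesion molecule, at 6.995 and 6.32 in aOPC compared with 5.07 and 1.63 in aOL. Plat, the gene of tissue plasminogen activator, was at 12.98 and 12.72 against 12.93 and 12.99, with overlap. Plat was named after its values were seen. Vwf, Emcn and Cd93, which mark endothelium, were not listed.

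Of 12 endothelial transcription factors, 4 were listed and 3 tested. Klf2, which responds to flow, stood at 7.98 and 8.03 in aOPC, against 5.73 and 5.63 in aOL, and was not called (limma adjusted p = 0.0611). Klf4, its relative, was at 9.19 and 6.10 against 5.33 and 4.57. Sox17, Sox18 and Erg were not listed. Of 11 genes for transport across the barrier, 8 were tested, 7 overlapped and 1, the efflux pump Abcg2, was lower in aOL (10.25 and 10.15 against 9.16 and 9.05, limma adjusted p = 0.127). Mural cells had 3 of 14 genes listed, without Pdgfrb and Rgs5, which define pericytes. Anpep was lower without overlap, at 5.20 and 5.18 in aOPC against 3.80 and 1.63 in aOL, and passed the filter only through aOPC. The Ly6 family had 5 of 11 genes listed and 3 tested, and Ly6e was at 8.60 and 8.44 against 6.71 and 6.44.

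**Figure D2:**
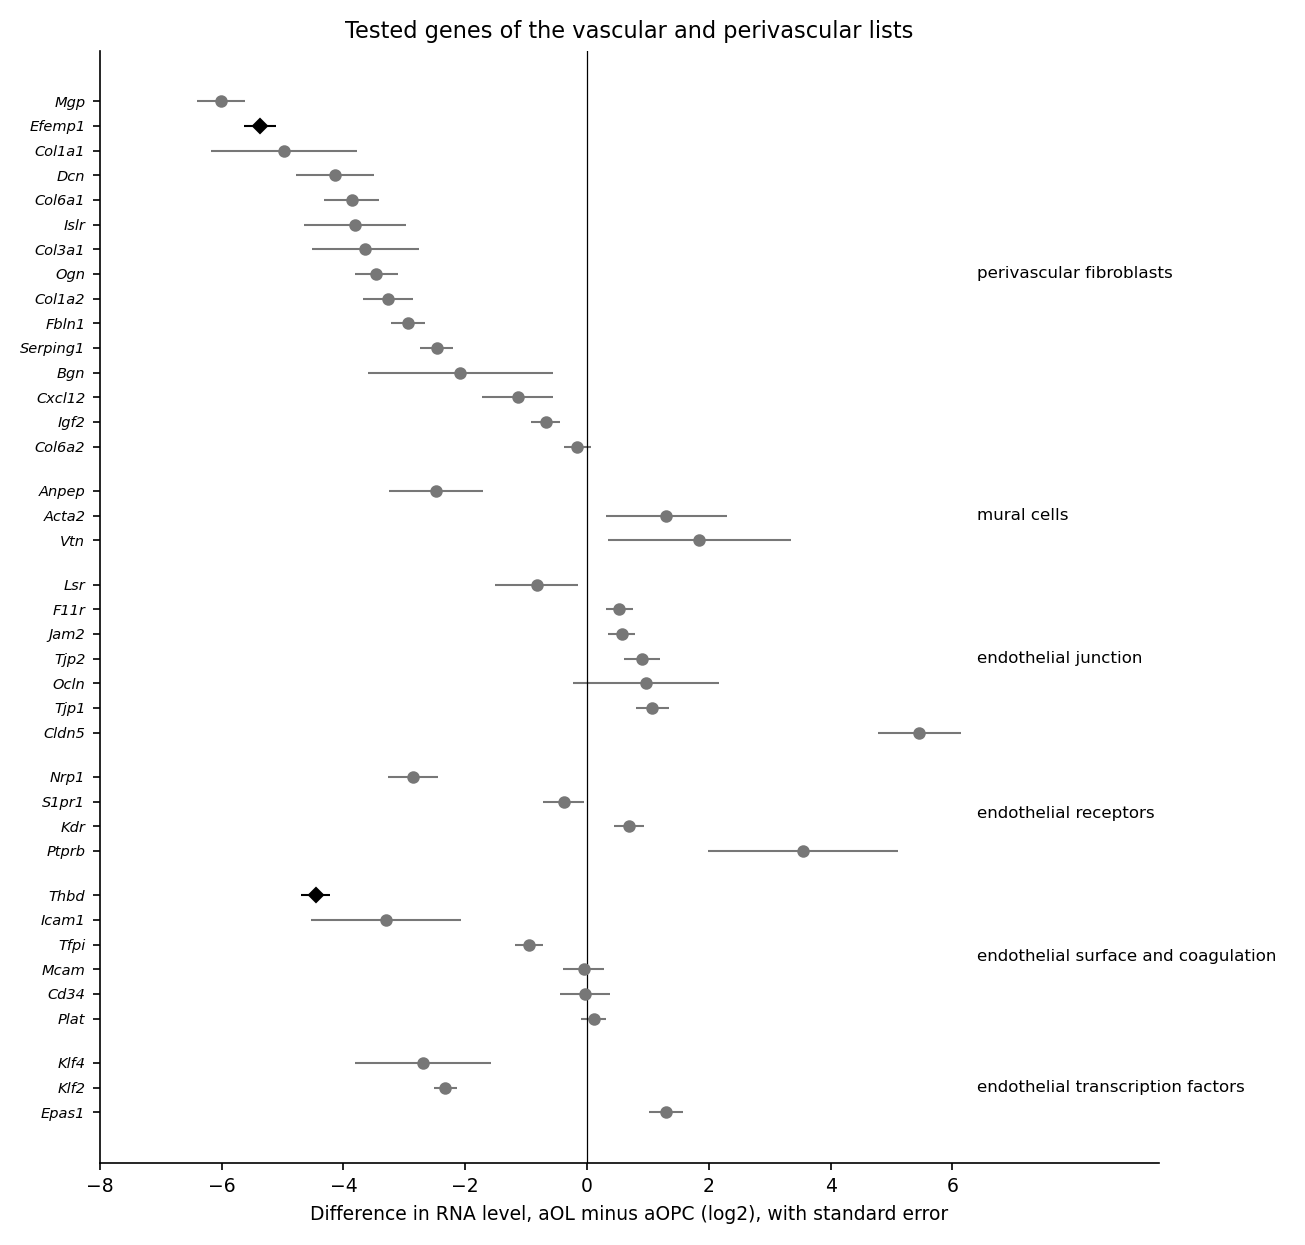
Difference in RNA level between aOL and aOPC (log2, horizontal axis) with its standard error for the tested genes of 6 lists, and the genes called drawn as black diamonds. The perivascular fibroblast genes lie to the left of 0, with Mgp at -6.01 and Efemp1 at -5.37, whereas the junction genes lie mostly to the right, with Cldn5 at 5.46.

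Markers of other cell types were counted in the same way. Summed on the linear scale, 8 astrocyte markers came to 14500 and 11500 in aOPC compared with 11000 and 12700 in aOL. The 10 microglia markers in the tables came to 6150 and 3940 in aOPC, against 4430 and 3320 in aOL, and 11 OPC markers to 191000 and 159000 against 156000 and 165000. Most of the OPC sum was Olig1, Sox10 and Olig2, which are active in the whole lineage and are named after their values were seen, so it does not follow the other markers. The neuron markers in the tables, 6 of 8, came to 4500 and 5630 against 3290 and 3660, without Rbfox3 and Slc17a7. In these lists no gene was called. Among tested genes, the largest non-overlapping differences in each list were those of Neu4 (-5.17 ± 1.02) and Vcan (-4.20 ± 1.29) among the OPC markers, which both passed the filter only through aOPC, and of Gjb6 (-2.88 ± 0.34) and Gja1 (-1.21 ± 0.60) among the astrocyte markers. For oligodendrocytes they were those of Opalin (-0.98 ± 0.23) and Ugt8a (0.79 ± 0.22), for microglia C1qc (-1.37 ± 0.52) and Itgam (1.18 ± 0.73), and for neurons Stmn2 (-2.10 ± 0.46) and Tubb3 (-0.46 ± 0.28), all in log2 units with the SE. The part of any of these cells in the differences of the members was not tested.

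RRHP reads 5-hydroxymethylcytosine (5hmC), which TET enzymes make from methylated cytosine, at CCGG sites. A glucose placed on 5hmC protects the site from the enzyme MspI, so that it gives reads. Each record is 1 strand at 1 site, and all records checked, on 6 chromosomes, lay at a CCGG of GRCm38. The 7 genes differed in how many such sites they offered. Cldn5, on the plus strand of chromosome 16 at 18776847 to 18778262, has 1 exon and 10 sites, of which 10 were read. Flt1, on the minus strand of chromosome 5 at 147561604 to 147726438, has 212, of which 133 were read. Pecam1, on the minus strand of chromosome 11 at 106654213 to 106715281, has 67, of which 45 were read. Thbd, on the minus strand of chromosome 2 at 148404471 to 148408188, has 8, of which 7 were read.

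The matrix genes are poor in CCGG. Efemp1, on the plus strand of chromosome 11 at 28853154 to 28926743, has 12 sites in 11 exons and the introns between them, or 0.163 per kb, and 5 were read. Dcn, on the plus strand of chromosome 10 at 97479500 to 97518163, has 12, or 0.31 per kb, and 3 were read. Ly6c1, on the minus strand of chromosome 15 at 75044018 to 75048920, has 1 site, and it was not read in any library. The RefSeq promoter window of 250 bases before to 50 after the start (GRCm38) held no CCGG in Efemp1, Cldn5 or either window of Ly6c1, and 6 in Flt1. Of 32851 such windows 52.8% hold the motif, which reads the same on both strands. Thbd, Pecam1 and Dcn had no entry in the promoter table.

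The largest difference among the members' records lay in intron 4 of Efemp1, on 1 fragment between neighbouring CCGG sites, 38.4 kb after the start of the gene. The fragment is shown with 30 bases on each side, at chr11:28891515-28891722 (GRCm38, plus strand), because it held nearly all aOPC counts of the gene. The capitals mark the CCGG at each end, 144 bases apart.

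Efemp1 intron 4 fragment: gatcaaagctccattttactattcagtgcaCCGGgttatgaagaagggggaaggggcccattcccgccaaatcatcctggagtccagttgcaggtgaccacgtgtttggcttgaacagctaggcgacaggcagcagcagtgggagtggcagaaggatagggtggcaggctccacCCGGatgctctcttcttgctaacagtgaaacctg

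The plus record at position 28891546 had 54 and 153 counts in the aOPC pair against 1 and 2 counts in the aOL pair. The minus record at position 28891691 had 31 and 61 counts in aOPC and none in either aOL library. Both ends were high in both aOPC libraries and at or near 0 in both aOL libraries. They belong to 1 fragment and are not independent of each other.

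Per count of the library totals, the plus record was 122 times higher in aOPC than in aOL, with a 95% exact interval of 41.3 to 598 that covers counting error only. The minus record was at least 26.5-fold lower in aOL, taking 3 counts in each aOL library as the floor. These counts make up most of the gene body counts known when the members were picked, and both records passed the filter only through their aOPC libraries, so no test is read from them. In the edgeR fit over 443062 single records 1.08% were called lower and 1.21% higher in aOL.

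The Efemp1 gene body had 92 and 218 counts in aOPC compared with 11 and 10 in aOL, or 12.8 ± 0.142 CPM (counts divided by the library total and multiplied by 1e6) against 0.53 ± 0.227 (SD, n = 2 each). The log2 difference was -4.67 ± 0.36 (SE), a value known when the members were picked. Over all 18488 gene bodies tested 0.687% were called lower and 0.162% higher. The fragment in intron 4 gave 92.4% and 98.2% of the gene's counts in the aOPC libraries, but 9.09% and 20% of the few counts in the aOL libraries. The gene's other records had 0.984 and 0.234 CPM in aOPC, against 0.628 and 0.296 in aOL, and overlapped. The difference of the gene body therefore came from that fragment.

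The other 3 records of Efemp1 were too few in reads to test. At 140 bases after the start, in the untranslated part of exon 1, the plus record had 2 and 1 counts in aOPC against 3 and 5 in aOL. At 227 bases, in intron 1, the minus record had 5 and 1 counts against 3 and 2. These are the records of the promoter column, and their sum of 7 and 2 counts in aOPC compared with 6 and 7 in aOL did not enter the promoter fit. A difference in the promoter of Efemp1 was not detectable at this depth.

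Dcn had 7 and 10 gene body counts in aOPC, against 9 and 14 in aOL, or 0.784 ± 0.283 CPM against 0.541 ± 0.0338 (SD, n = 2 each), and was not tested. Its libraries did not overlap, at 0.984 and 0.584 CPM against 0.565 and 0.517. Most of them lay at 97503681 in intron 3, with 4 and 7 counts in aOPC against 9 and 10 in aOL. The floor of 3 counts stands at 0.111 to 0.422 CPM in these libraries, so the matrix gene that resembled Efemp1 in RNA gave too few reads to compare.

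For the endothelial genes, whose RRHP records had no part in choosing them, the gene bodies showed no call. Flt1, which encodes the first receptor for vascular endothelial growth factor, had 105.0 and 95.7 CPM in aOPC compared with 101.0 and 102.0 in aOL. Its log2 difference was 0.01 ± 0.12 (SE, edgeR adjusted p = 0.989). Pecam1, the platelet endothelial adhesion molecule CD31, had 56.5 and 72.4 in aOPC, against 73.3 and 64.2 in aOL, a log2 difference of 0.07 ± 0.15 (SE, edgeR adjusted p = 0.912). In both genes the libraries overlapped, and both are long genes with many records, so their errors were the smallest among the members.

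Cldn5 had 8.58 and 6.72 CPM over its gene body in aOPC against 6.47 and 6.91 in aOL, a log2 difference of -0.18 ± 0.24 (SE, edgeR adjusted p = 0.861). Thbd had 8.58 and 8.18 in aOPC compared with 7.10 and 6.65 in aOL, without overlap, and the difference of -0.29 ± 0.22 (SE) did not pass the test (edgeR adjusted p = 0.779). Thus Cldn5 and Thbd, whose RNA values lay 5.46 and 4.45 log2 units apart in opposite directions, differed in 5hmC by less than 2 standard errors. These errors do not show that the levels were equal. Over all gene bodies tested the median log2 difference was -0.003.

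**Figure D3:**
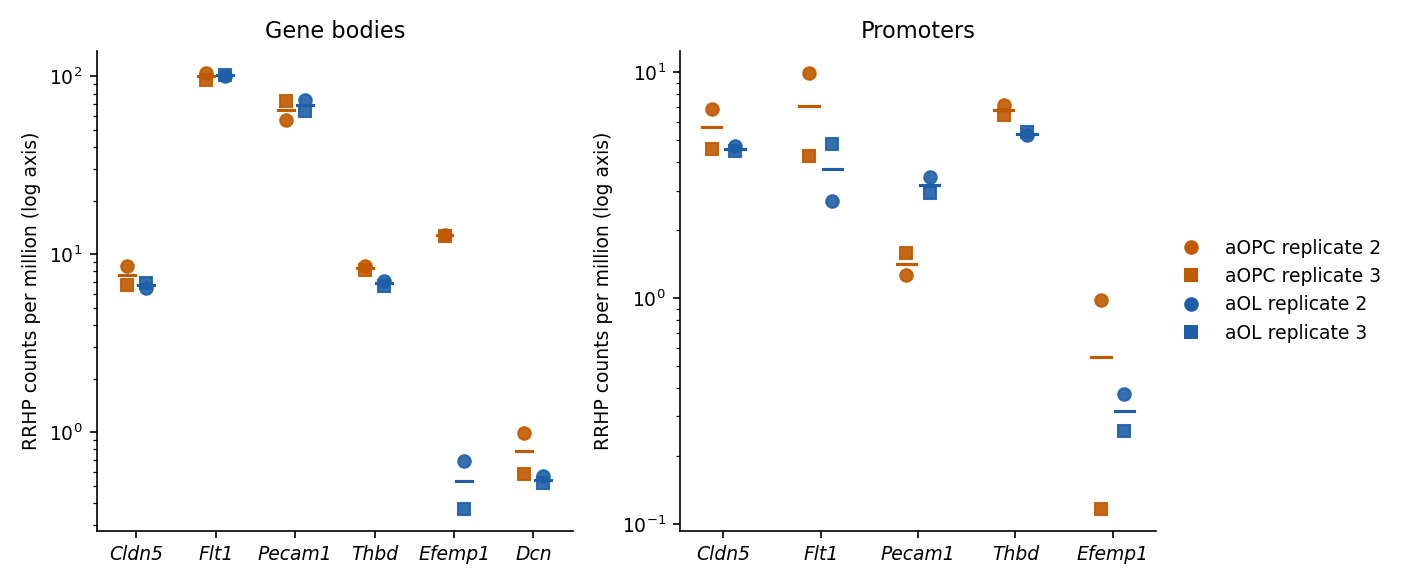
RRHP level in CPM (vertical axes, log scale) over gene bodies and promoters in each library, with the mean of each population as a line. Efemp1 bodies lie furthest apart, at 12.9 and 12.7 in aOPC, against 0.691 and 0.37 in aOL, those of Thbd and Dcn part by less, and among the promoters Pecam1 is higher in both aOL libraries.

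In the promoter column of the deposited files, whose member records lay between -859 and 1384 bases from the annotated start, 4 members were tested and none was called. Over 14579 promoters tested 0.35% were called lower and 0.418% higher. Pecam1 was at 1.27 and 1.58 CPM in aOPC against 3.45 and 2.92 in aOL. The aOL libraries were both higher, by 1.48 ± 0.44 log2 units (SE, edgeR adjusted p = 0.176). The call depended on the setting. The adjusted p (edgeR unless named) was 0.0373 without a filter on low counts (1.47), 0.774 with library totals (1.14), 0.609 with the replicate number as a block and 0.958 with DESeq2. With a crossed block, chosen after seeing the data, it was called. Without aOPC replicate 2 the difference was 0.93 (edgeR adjusted p = 0.496) and without aOPC replicate 3 it was 2.38 (edgeR adjusted p = 0.000276). In these last fits the lone aOPC library is assumed to vary like the aOL libraries, and the latter raised the number of promoters called higher from 61 to 1471.

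The Pecam1 promoter sum came from 4 records. Its most different record lay on the minus strand at position 106715708 (-427 from the start), with 1 and 3 counts in aOPC compared with 22 and 22 in aOL. It passed the filter only through its aOL libraries, so the log2 difference of 2.57 ± 0.68 (SE) is given as a description. Another record 148 bases after the start had 7 and 18 counts in aOPC, against 23 and 48 in aOL, a difference of 0.58 ± 0.44 (SE, edgeR adjusted p = 0.757). The other 2 records, both within 55 bases before the start, had at most 8 counts in any library.

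Thbd had promoter counts of 51 and 111 in aOPC against 84 and 147 in aOL, and a log2 difference of 0.07 ± 0.45 (SE, edgeR adjusted p = 0.998). Cldn5 had 49 and 78 against 75 and 121, a difference of 0.19 ± 0.41 (SE, edgeR adjusted p = 0.998). The sign of both turned under scaling by library totals, to -0.35 and -0.31. Flt1 had 71 and 73 against 43 and 130, a difference of -0.32 ± 0.40 (SE, edgeR adjusted p = 0.998). That value was -0.89 with library totals, -0.09 without aOL replicate 2 and -0.60 without aOL replicate 3. Its 32 promoter records held a median of 10 counts over all libraries together and at most 22, and none passed the filter for single records.

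For the endothelial genes, the promoter site that holds the most-read tested record outside untranslated sequence is shown, to place records described here. Reads of the 2 strands were not added up for this choice. Each is printed on the plus strand of GRCm38 with 30 bases on each side and the CCGG in capitals. The Cldn5 site, at chr16:18777141-18777204, lies in the coding part of its exon. The Pecam1 site, at chr11:106715676-106715739, and the Thbd site, at chr2:148408486-148408549, lie before the start.
Cldn5: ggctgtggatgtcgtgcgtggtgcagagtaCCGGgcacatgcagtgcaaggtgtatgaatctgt
Pecam1: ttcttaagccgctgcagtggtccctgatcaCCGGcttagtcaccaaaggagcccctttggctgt
Thbd: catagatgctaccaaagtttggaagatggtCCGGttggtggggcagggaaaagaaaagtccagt

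The Cldn5 site was read on both strands, with 6 and 13 counts in aOPC compared with 12 and 16 in aOL on the plus strand and 12 and 17 against 19 and 26 on the minus strand. The log2 differences were -0.33 ± 0.52 and -0.34 ± 0.49 (SE, edgeR adjusted p = 0.901 and 0.889). The Thbd site had 9 and 22 counts against 19 and 24, a difference of -0.40 ± 0.46 (SE, edgeR adjusted p = 0.854).

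Of the 284 member records, 107 passed the filter of at least 10 reads in at least 2 libraries, of which 2 were those of the Efemp1 fragment. The other 105 were not called. In Flt1, 31 of 61 tested records were below 0, with log2 differences from -0.87 to 1.24 and a median of -0.002. Pecam1 had 12 of 29 below 0, with log2 differences from -0.52 to 2.57 and a median of 0.18. Its smallest adjusted p is that of the record at -427, which passed the filter only through aOL and is not read as a test. Cldn5 had 5 of 6 below 0 and Thbd 8 of 9, with medians of -0.30 and -0.49, and the smallest adjusted p (edgeR) was 0.563 in Cldn5, 0.66 in Thbd and 0.491 in Flt1. Records of 1 gene share their libraries and often a fragment. The median over all records tested was -0.01.

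**Figure D4:**
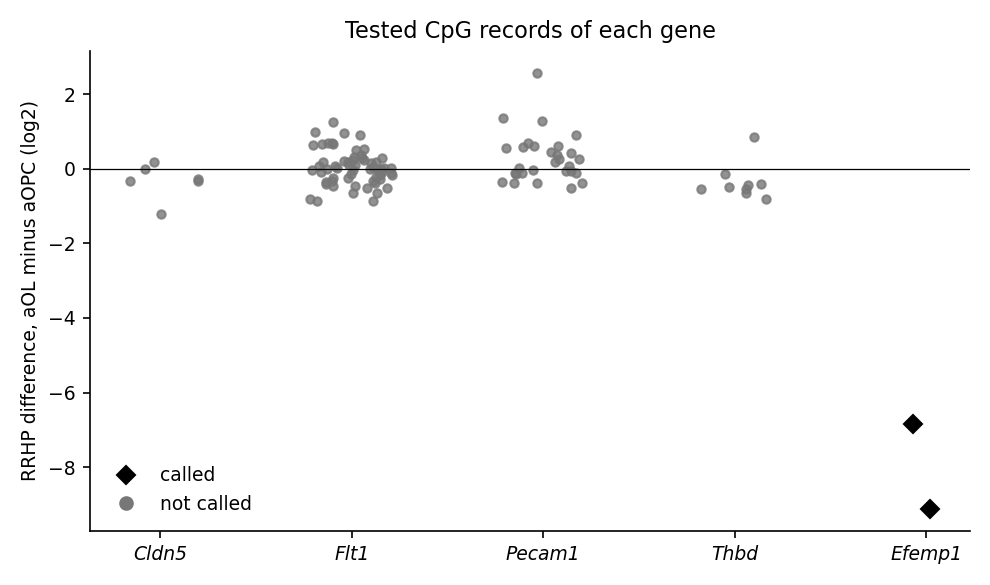
Log2 difference in RRHP counts between aOL and aOPC (vertical axis) for each of the 107 tested records of 5 genes, spread sideways only to separate them. The 2 records past the threshold, drawn as black diamonds, are those of the Efemp1 fragment at -6.84 and -9.12, and the other records lie between -1.21 and 2.57.

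Whether a record could be tested followed the distance to the next CCGG. Of 226 member records with 41 to 400 bases to it, 105 were tested, and their median total over the 4 libraries was 29.5 counts. Of 15 records with a shorter distance 1 was tested, and of 43 with a longer distance 1 was tested, with median totals of 3 and 1 counts. The tested records had a median distance of 158 bases.

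Records around Efemp1 were compared with those around the other members. Within 1 Mb of Efemp1, its own records left out, 12 of 158 tested records were called lower (7.59%) and 9 higher (5.7%), against 1.08% and 1.21% of all records. Around Flt1, Pecam1, Cldn5, Thbd, Dcn and Ly6c1 no record was called lower, and 1 to 5 were called higher out of 162 to 865 tested.

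Most of the called records near Efemp1 were close to all or nothing, and such records passed the filter only through the population where they were high. Of the 12 lower, 10 had 3 counts or fewer in both aOL libraries, and of the 9 higher, 8 had 3 or fewer in both aOPC libraries. The record 268 kb before the start had 104 and 199 counts in aOPC and none in aOL. The record 752 kb after it had none in aOPC, against 135 and 179 in aOL. The nearest other record called lower was 115 kb away and the nearest called higher 302 kb away. What these stretches share was not tested.

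RNA of the genes near Efemp1 did not show the same size of difference. Of 9 other genes within 1 Mb in the RNA tables none was called. Ccdc85a, before Efemp1, stood at 5.68 and 6.05 in aOPC against 7.50 and 7.42 in aOL. Rps27a, which encodes a ribosomal protein fused to ubiquitin, stood at 12.53 and 13.30 against 11.62 and 11.71, with a difference of -1.25 ± 0.32 (SE). The neighbours lay between -1.25 and 1.60 log2 units, whereas Efemp1 lay at -5.37. Both neighbours were chosen for mention as the ends of that range.

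**Figure D5:**
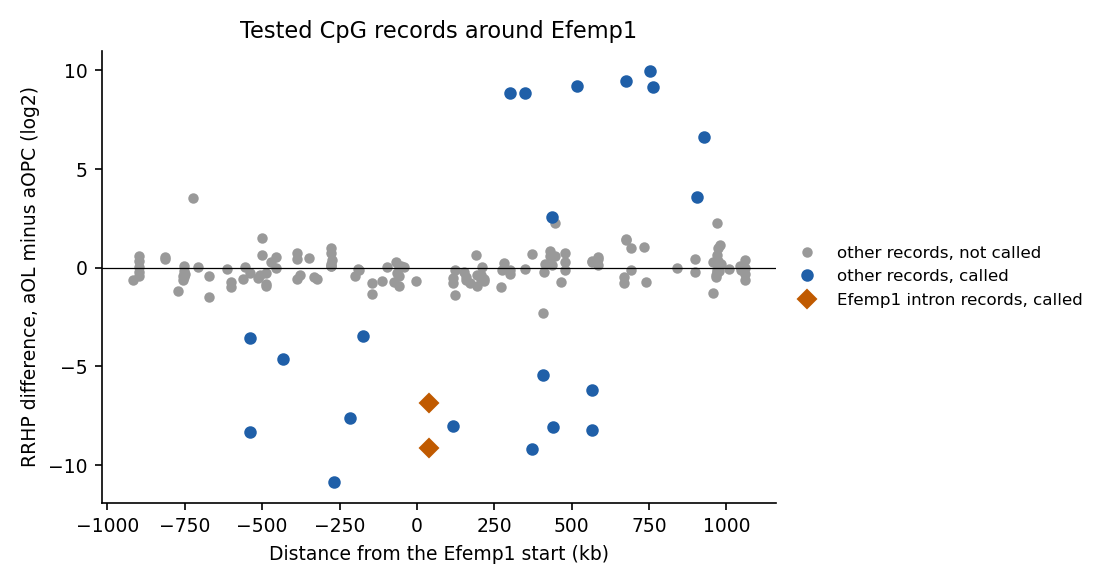
Log2 difference in RRHP counts (aOL minus aOPC, vertical axis) of tested records against their distance from the start of Efemp1 (horizontal axis, kb). The 2 intron records of Efemp1 (orange) and 12 other records called lower lie below the band of uncalled records, and the 9 called higher (blue, above) all lie over 300 kb after the start.

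In the same fits, among the 16 lists, Tjp1, Klf2 and Mobp were the gene bodies called besides Efemp1, all lower in aOL. Tjp1 had 15.2 and 16.4 CPM in aOPC compared with 6.47 and 7.54 in aOL, a log2 difference of -1.18 ± 0.19 (SE, edgeR adjusted p = 0.0169). Klf2 had 12.9 and 9.81 against 4.52 and 3.95, a difference of -1.42 ± 0.25 (SE, edgeR adjusted p = 0.0269). Tjp1 was thus lower in 5hmC with RNA values higher in both aOL libraries, and Klf2 lower in 5hmC with RNA values lower in both. Of the other fibroblast genes none was called, with 17 of 21 gene bodies tested. Mobp, a myelin gene, had 107 and 326 counts against 120 and 217, a difference of -1.16 ± 0.19 (SE, edgeR adjusted p = 0.0195). In the promoter column C1qb and C1qc, complement genes of microglia, were called lower. C1qb had 30 and 90 counts in aOPC against 8 and 14 in aOL (edgeR adjusted p = 0.00108), and C1qc had 12 and 28 and then none in aOL, having passed the filter only through aOPC.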

How the data were processed

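RNA-sequencing and RRHP were compared between 2 aOPC and 2 aOL libraries each, grouped by the sample titles. For RNA the deposited values are log2 levels per gene, which the authors made from reads aligned to mm10 with BWA, counted over exons with featureCounts and normalized with DESeq2 (submitters' processing notes: version 1.2.5). From the lower quartile upwards the libraries have nearly equal quantiles. These values hold no read counts, so no depth per gene could be computed from them, and the mapped read totals listed in the study's methods were not used here. For RRHP the deposited values are raw counts per CpG record and strand on mm10, with the authors' promoter, exon and intron columns. The aligner and the handling of duplicate reads are not given in the sources used here. Without molecular identifiers, intervals and floors cover counting error only.

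RNA was fitted with limma 3.58.1 on genes with a log2 level of at least 5 in at least 2 libraries and called where p was under 0.01 and the adjusted p (Benjamini-Hochberg) under 0.05. RRHP was fitted by quasi-likelihood in edgeR 4.0.16, scaled by TMM, on records that reached 10 reads in 2 or more libraries and on sums over gene bodies and promoters (filterByExpr), and called at an adjusted p under 0.05. P-values were adjusted over all features tested. In the edgeR fits, the SE is the size of the log2 difference divided by the square root of the F statistic, so it restates the test. Alternatives changed the scaling, filter and tool (DESeq2 1.42.0), added the replicate number, or left out 1 library. Fits were tested on simulated data. R 4.3.3 and Python 3.11.15 were used. Gene coordinates came from the GENCODE annotation and sequences from the GRCm38 assembly, after file positions were moved to count from 1.

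The members and gene lists were chosen with earlier results of these data known. Named genes were the members, the called genes of each list, the 2 genes of each list with the largest difference among those without overlap, and the 3 genes nearest to Efemp1 and Cldn5, and others are said to be chosen after their values were seen. The study's methods call the RRHP replicates biological, and RNA came from the same cells, but the labels number no animals, so p-values measure the spread between these preparations. Same-numbered aOPC and aOL libraries come from different reporter lines.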

Additional observations from a re-analysis of the deposited data

How the results depend on the processing

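Each group had 2 libraries, so every error rests on few degrees of freedom. With 1 library left out, the lone library of an arm is assumed to vary like the other group. The log2 difference of the Efemp1 gene body, known when the members were chosen, ran from -4.21 to -5.09 over the alternatives. The numbers of called RNA genes moved most. Against 1 higher and 8 lower, there were 0 and 0 without a filter (smallest adjusted p = 0.0581 by limma, with 1339 higher and 1322 lower at an unadjusted p under 0.05), 8 and 25 with a filter at log2 7, and 8 and 15 with a trended, robust prior. Leaving out 1 library at a time gave 8 to 2026 genes called higher and 91 to 1969 lower, the larger numbers without an aOPC library, with 0 to 1 members higher and 3 lower. Calls of members in RNA restate what chose them.

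For single RRHP records, against 5382 higher and 4772 lower, there were 2328 higher with DESeq2, 11084 and 12774 with at least 3 reads in 1 library, and 229 and 261 with at least 10 reads in every library. The last filter left 0 member records called, since the aOL counts of the Efemp1 fragment are under it. With library totals and with 3 reads in 1 library, 1 member record was past the threshold as higher in each. Without 1 library there were 252 to 10623 records called higher and 920 to 15643 lower, and 0 to 2 member records lower. The Efemp1 records had too few reads to be tested without aOPC replicate 2 or without aOPC replicate 3.

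For gene bodies, 30 were called higher and 127 lower, and 16 were higher with 10 reads in every library. Leaving out 1 library gave 13 to 1928 higher and 70 to 2318 lower. For promoters, 61 were higher and 51 lower, against 31 higher with library totals, 34 and 33 with DESeq2, 140 and 79 without a filter (1 member higher, Pecam1), and 18 and 12 with 10 reads in every library. Leaving out 1 library gave 31 to 1471 higher and 28 to 194 lower, with 0 to 1 members higher. By the unadjusted sign, library totals turned the promoters of Cldn5 (-0.31) and Thbd (-0.35). With 1 library left out, the difference ran from -0.0379 to 0.058 for the gene body of Flt1, from -0.1005 to 0.2912 for that of Pecam1, from -0.057 to 0.4774 for the promoter of Cldn5 and from -0.3408 to 0.6441 for that of Thbd. None of these was called in either direction.

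The replicate numbers do not pair the samples, since same-numbered libraries come from different mouse lines, and their deviations correlated at -0.07 in RNA and -0.41 in gene bodies. With the number as a replicate block, 30 RNA genes were called higher and 97 lower (1 member higher, Cldn5, and 3 lower, with Dcn added), 46 gene bodies higher and 38 promoters higher. A crossed replicate block, chosen after seeing the data, gave 228 and 490 gene bodies, 249 and 88 promoters, and 1 member record and 1 member promoter (Pecam1) higher.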
